A study of Mus musculus with 24 samples.

Results

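The genes examined here were 8 genes of cholesterol synthesis and of its control, Srebf2, Insig1, Hmgcs1, Idi1, Fdps, Sqle, Lss and Cyp51, in the gastrocnemius muscle of 24 mice. A probe belonged to them when its accession or, failing that, the name in the scanner file gave 1 of these symbols. This held for 20 of 41174 probes of the array, and 10 of these 20, for 7 of the 8 genes, were among the 15958 probes that were bright enough in both channels to be compared. All animals were adult male C57BL/6N mice on a high-fat diet (cHF; 8 mice), in which lipids, mainly corn oil, made up 35% of the weight, and the diets were given for 8 weeks. In the cHF+F group (8 mice) a concentrate of n-3 LC-PUFA with 46% DHA and 14% EPA replaced 15% of the lipids, and in the cHF+ROSI group (8 mice) the cHF diet contained 10 mg rosiglitazone per kg. Rosiglitazone is an anti-diabetic drug that activates the nuclear receptor PPARγ. Before they were killed, the mice of all groups were fasted for 10 hours and re-fed Chow overnight, so that every value describes muscle in the re-fed state. The animals were housed in pairs and the labels do not give the cages, so mice of 1 group may have shared a cage.

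Cells make cholesterol from acetyl-CoA through the mevalonate pathway, and they also take it up from lipoproteins. Both routes are controlled by SREBP2, the transcription factor encoded by Srebf2: when sterols are scarce, the escort protein Scap carries it from the endoplasmic reticulum to the Golgi, where it is cut and released to the nucleus, and when sterols are abundant, Insig proteins retain it. SREBP2 binds sterol regulatory elements in the promoters of synthesis genes, of Insig1 and of its own gene. The liver is known for this pathway, and other tissues, muscle among them, also need it for their membranes and for the isoprenoids made from the same precursors.

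Because Hmgcs1 varied with Idi1 from mouse to mouse, and Srebf2 encodes the regulator of the pathway, the 250 bases before the transcription starts of these 3 genes are printed first, 5′ to 3′, from RefSeq on build GRCm38.p6. They lie on the plus strand at chr15:82147019-82147268 (Srebf2), chr13:119690101-119690350 (Hmgcs1) and chr13:8885356-8885605 (Idi1). The scanner files place the Idi1 probe on chromosome 2 of build mm8, so its link to the stretch printed for Idi1 is uncertain. Capitals mark the letters TCACNCCA, a core of the sterol regulatory element, and the letters CCAAT, the box bound by NF-Y, each searched on both strands (CCAAT on the opposite strand reads ATTGG).
Srebf2: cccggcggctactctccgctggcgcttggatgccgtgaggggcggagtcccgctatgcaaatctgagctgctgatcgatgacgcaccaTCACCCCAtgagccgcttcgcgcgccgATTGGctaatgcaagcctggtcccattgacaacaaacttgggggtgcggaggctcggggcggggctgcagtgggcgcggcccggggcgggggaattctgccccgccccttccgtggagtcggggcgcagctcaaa
Hmgcs1: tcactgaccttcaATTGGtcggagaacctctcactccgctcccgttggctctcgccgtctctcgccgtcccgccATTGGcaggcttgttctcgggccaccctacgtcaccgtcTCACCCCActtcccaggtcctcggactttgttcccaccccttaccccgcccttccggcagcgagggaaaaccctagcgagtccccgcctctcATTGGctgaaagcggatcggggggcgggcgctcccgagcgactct
Idi1: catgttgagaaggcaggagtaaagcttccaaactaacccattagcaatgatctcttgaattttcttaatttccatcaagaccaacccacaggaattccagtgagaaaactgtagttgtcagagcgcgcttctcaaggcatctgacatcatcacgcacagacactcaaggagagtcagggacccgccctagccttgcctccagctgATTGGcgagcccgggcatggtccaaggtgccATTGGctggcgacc
TCACNCCA was found once in the Srebf2 stretch, starting 162 bases before the transcription start, and once in that of Hmgcs1, at 137 bases, and 3.67% of 32851 mouse promoters of the same length held it. It was not among the letters of the Idi1, Insig1, Lss or Cyp51 stretches. CCAAT was found in all 6 of these promoters, with 3 matches in Hmgcs1, 2 in Idi1 and 1 in each of the others, against 33.8% of all promoters with at least 1. The reference table lists no promoter of Sqle or Fdps.

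The tissue carried the identity of its label: all 10 skeletal muscle markers examined, among them Acta1, Ckm and Myh4, were measured, with Cy5 signals 2480 to 6070 times the local background. The adipocyte markers (7 of 7 measured) were present as well, and their mean log2 ratio per mouse ranged from -0.98 to 0.70 in cHF, from -1.31 to 1.02 in cHF+F and from -0.87 to 0.33 in cHF+ROSI. Of 10 liver markers 8 were measured (not Ttr and Serpina1a), and the Cy5 signals of all 10 were 1.6 to 45.8 times the background. The score of the 8 measured markers ranged from -2.05 to -0.40 in cHF (mean -0.88). It ranged from -1.29 to 0.65 in cHF+F (mean -0.54) and from -1.91 to 1.25 in cHF+ROSI (mean -0.20). Mean scores in cHF, cHF+F and cHF+ROSI were -0.33, -0.37 and -0.305 for adipocyte markers and 0.27, 0.285 and 0.12 for muscle markers. For endothelium (5 markers) they were 0.11, -0.11 and -0.09, and for macrophages (7 markers) 0.01, -0.14 and -0.07. For the 2 measured of 4 blood markers they were 0.02, 0.0006 and -0.38. The part of any of these cell types in the diet differences was not tested. On 22 arrays 41.5% to 61.3% of the Cy5 spots were well above background. For replicate 3 of cHF it was 30.4%, and for replicate 4 of cHF+ROSI it was 91.1%. These 2 arrays stood apart, and some of the results are also given without them. Replicate numbers are the numbers of the 8 slides, each of which held 1 mouse of every group.

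None of the 7 measured genes passed the test in any comparison of diets, and neither did any other probe: at a Benjamini-Hochberg adjusted p under 0.05 in limma, 0 of 15958 probes (0%) were called in cHF+F versus cHF, in cHF+ROSI versus cHF and in cHF+F versus cHF+ROSI. At an unadjusted limma p under 0.05 there were 1096, 751 and 1062 probes. With slide as a block, 6 probes were called in cHF+F versus cHF, none of them a probe of these genes, and 0 in the other comparisons. In the loess ratios, the 95% intervals of the brightest probes of the 7 measured genes, each taken alone, reached at most 1.38-fold in cHF+F versus cHF. They reached at most 1.34-fold in cHF+ROSI versus cHF and 1.27-fold between the 2 supplemented diets. Some of the other settings given below yielded larger differences from cHF for Hmgcs1 and Sqle, so larger differences were not excluded. In cHF+F versus cHF the interval lay above 0 for 2 of the 7 genes, Sqle and Idi1, and below 0 for none, compared with 2.84% of all probes above 0 and 4.03% below. In cHF+ROSI versus cHF it included 0 for all 7, with 1.71% of all probes above and 3% below, and the same was true between cHF+F and cHF+ROSI, with 3.95% above and 2.7% below. Every value in these comparisons is a log2 ratio of the signal of 1 mouse (Cy5) over that of a common pool (Cy3), and in whole muscle a change in RNA per cell cannot be told apart from a change in the share of the cells that carry it.

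Srebf2 encodes SREBP2. Its log2 ratio had a lowest, median and highest value of -0.42, -0.24 and 0.25 in cHF, of -0.25, -0.06 and 0.20 in cHF+F, and of -0.54, 0.10 and 0.15 in cHF+ROSI. The groups overlapped throughout, and the cHF+ROSI group held both the mouse with the lowest value and 5 mice between 0.10 and 0.15. The mean of cHF+F exceeded that of cHF by 0.12 ± 0.10 (difference ± SE; limma adjusted p = 0.924), with a higher value in 6 of 8 slides, and that of cHF+ROSI exceeded it by 0.14 ± 0.10 (limma adjusted p = 0.997), also in 6 of 8 slides. Without the cHF mouse with replicate number 3, which had the highest Srebf2 value of its group, the differences were 0.18 and 0.20 and still not called. Without replicate 7 of cHF+ROSI, the lowest mouse by this probe, the difference of that group was 0.22. The other 2 probes of Srebf2 that were bright enough gave 0.09 and 0.03 for cHF+F and 0.18 and 0.001 for cHF+ROSI, so that the size of the difference depended on the probe. For the probe at 0.18 the 95% interval, 0.03 to 0.33, lay above 0 (limma adjusted p = 0.997).

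Insig1 encodes a sterol-sensing protein of the endoplasmic reticulum that holds back Scap and SREBP2. Its values ran from -0.19 to 0.17 in cHF, with a median of -0.06, from -0.22 to 0.16 in cHF+F, with a median of -0.01, and from -0.15 to 0.06 in cHF+ROSI, with a median of -0.01. The groups overlapped, and the cHF+ROSI mice had the narrowest range. The difference from cHF was 0.01 ± 0.06 for cHF+F (95% interval -0.11 to 0.13) and 0.005 ± 0.06 for cHF+ROSI (-0.11 to 0.13).

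**Figure D1:**
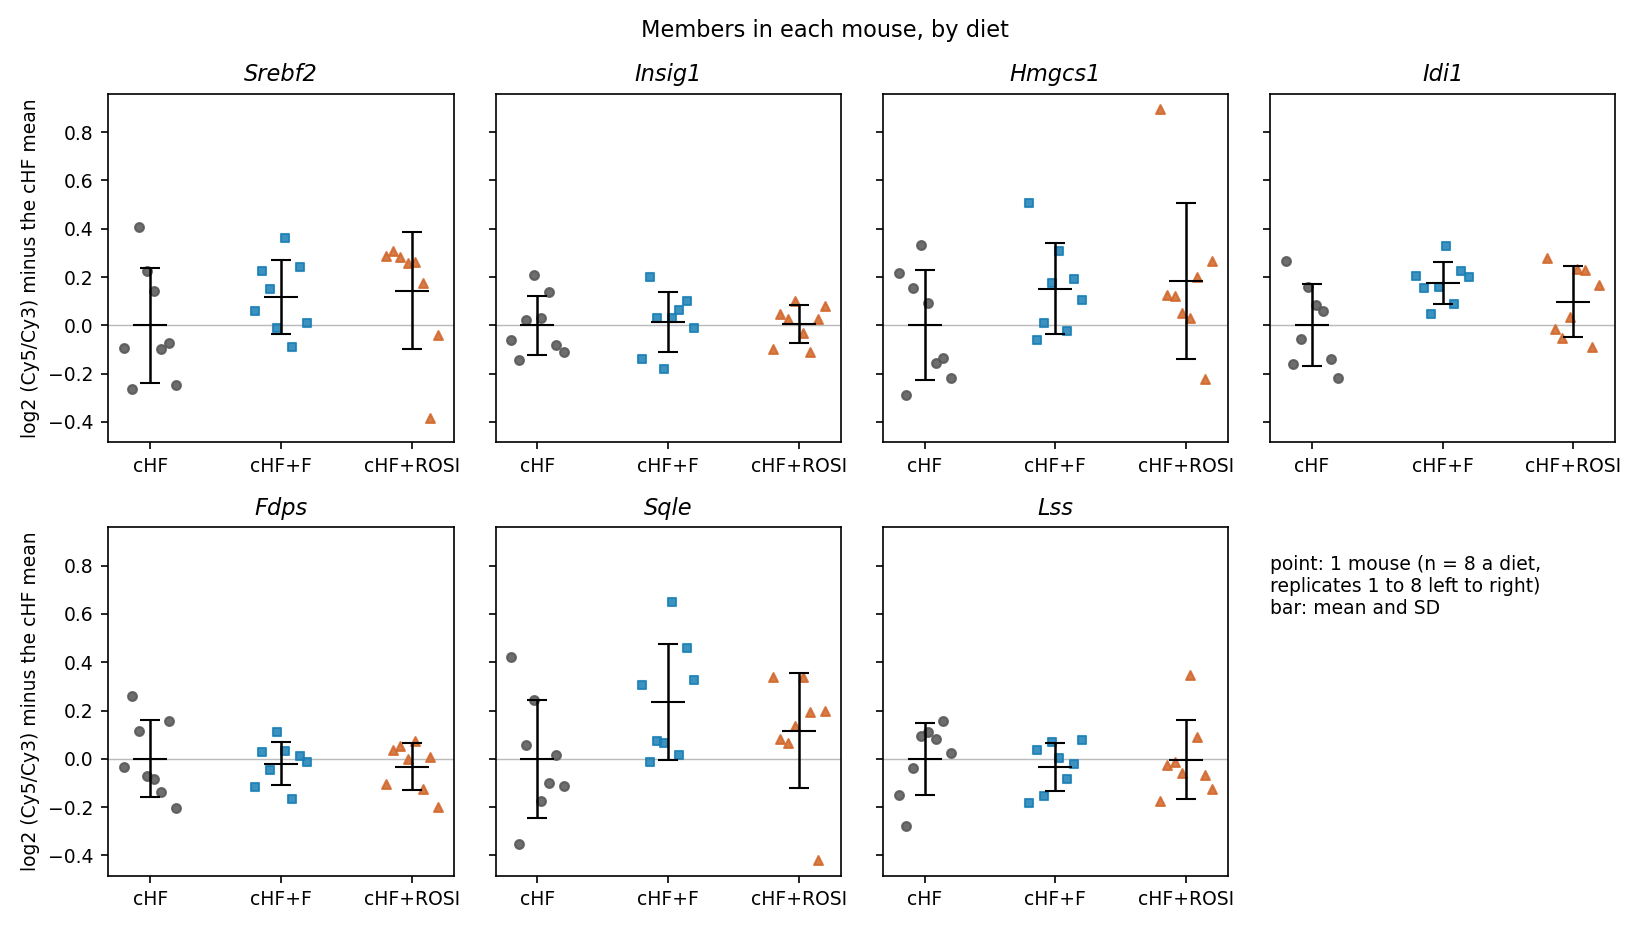
Log2 ratio (Cy5 over Cy3) of the brightest probe of each measured gene in every mouse, with the mean of the cHF group subtracted, by diet; points are mice (8 a diet, ordered by replicate number) and bars are the mean and SD. The 3 diets overlap for every gene, Hmgcs1 is highest in replicate 1 of cHF+F and of cHF+ROSI, and the cHF+F mice are the most tightly grouped for Idi1.

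Hmgcs1 encodes the cytosolic HMG-CoA synthase, which acts near the start of the mevalonate pathway. Its lowest, median and highest values were -0.34, -0.07 and 0.28 in cHF, -0.11, 0.09 and 0.46 in cHF+F, and -0.27, 0.07 and 0.85 in cHF+ROSI. The value of 0.85 belonged to replicate 1 and stood far above the next mouse of its group, at 0.22. The difference from cHF was 0.15 ± 0.12 for cHF+F (limma adjusted p = 0.901) and 0.18 ± 0.12 for cHF+ROSI (limma adjusted p = 0.997), and without the mouse at 0.85 the latter was 0.08. With Cy5 alone these differences were 0.75 and 0.66, but 0.22 and 0.14 without the 2 arrays that stood apart in brightness, with median centring in place of loess 0.27 and 0.35, and none of them was called. The 2 further probes of Hmgcs1 were too dim to be compared, and the scanner files place all 3 on an unplaced part of chromosome 13 (13_random) of build mm8.

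Idi1 encodes the isopentenyl-diphosphate isomerase, which interconverts the isoprenoid building blocks. The 8 cHF+F mice lay between 0.12 and 0.41, with a median of 0.26, while the cHF mice spread from -0.14 to 0.34 around a median of 0.08 and the cHF+ROSI mice from -0.02 to 0.36 around 0.18. All 8 cHF+F mice were above the mean of the cHF group, and 7 of 8 were above the cHF mouse of the same slide, by a median of 0.17 (range -0.06 to 0.41). The difference was 0.18 ± 0.07, or 1.13-fold (95% interval 0.03 to 0.32), but it did not pass the correction over all probes (limma adjusted p = 0.612; 0.213 with slide as a block). For cHF+ROSI it was 0.10 ± 0.07 (limma adjusted p = 0.997). With the processed signals of the scanner software, both differences turned to the other side of 0, at -0.02 and -0.08. The scanner files place both probes of Idi1 on chromosome 2 of mm8, whereas RefSeq has Idi1 on chromosome 13, so the identity of this probe is less certain than that of the others.

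Fdps encodes farnesyl diphosphate synthase, at the branch to sterols and to protein prenylation. Its values ranged from -0.13 to 0.33 in cHF, from -0.09 to 0.18 in cHF+F and from -0.13 to 0.15 in cHF+ROSI, with medians of 0.02, 0.07 and 0.08. The means of both supplemented groups differed little from that of cHF, by -0.02 ± 0.06 and -0.03 ± 0.06.

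Sqle encodes squalene epoxidase, the enzyme of the first oxygenation towards sterols. Its lowest, median and highest values were -0.41, -0.10 and 0.36 in cHF, -0.07, 0.13 and 0.59 in cHF+F, and -0.48, 0.10 and 0.28 in cHF+ROSI. The cHF+F mice were above the mean of cHF in 7 of 8 cases and above the cHF mouse of their slide in 6 of 8, yet the ranges overlapped widely. The difference of 0.24 ± 0.11, or 1.18-fold (95% interval 0.004 to 0.47), was the largest of the 7 genes and was not called (limma adjusted p = 0.715; 0.370 with slide as a block). For cHF+ROSI the difference was 0.12 ± 0.11 (limma adjusted p = 0.997), and it was 0.19 without replicate 7, whose value of -0.48 was the lowest of all 24 mice. With the processed signals of the scanner software both differences were larger, 0.62 and 0.44, and with Cy5 alone they were 0.57 and 0.34, or 0.41 and 0.29 without the 2 arrays that stood apart, again not called.

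Lss encodes lanosterol synthase, which closes the sterol rings. The brightest probe ranged from -0.24 to 0.19 in cHF, from -0.15 to 0.11 in cHF+F and from -0.14 to 0.38 in cHF+ROSI. Its differences from cHF were -0.03 ± 0.07 for cHF+F and -0.003 ± 0.07 for cHF+ROSI, and those of the other Lss probe were 0.07 ± 0.07 and 0.02 ± 0.07. Cyp51, the sterol demethylase that acts on lanosterol, could not be compared in the same way, since the Cy3 signals of its 3 probes were only 1.51 to 1.64 times the background. The brightest of them was well above background on 21 arrays in Cy5 and on 11 in Cy3. Without the filter on dim probes its mean log2 ratio was 0.04 ± 0.06 (SD, n = 8) in cHF, 0.17 ± 0.12 in cHF+F and 0.15 ± 0.15 in cHF+ROSI, and the difference of 0.13 between cHF+F and cHF had a limma adjusted p of 0.530 over 41174 probes.

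**Figure D2:**
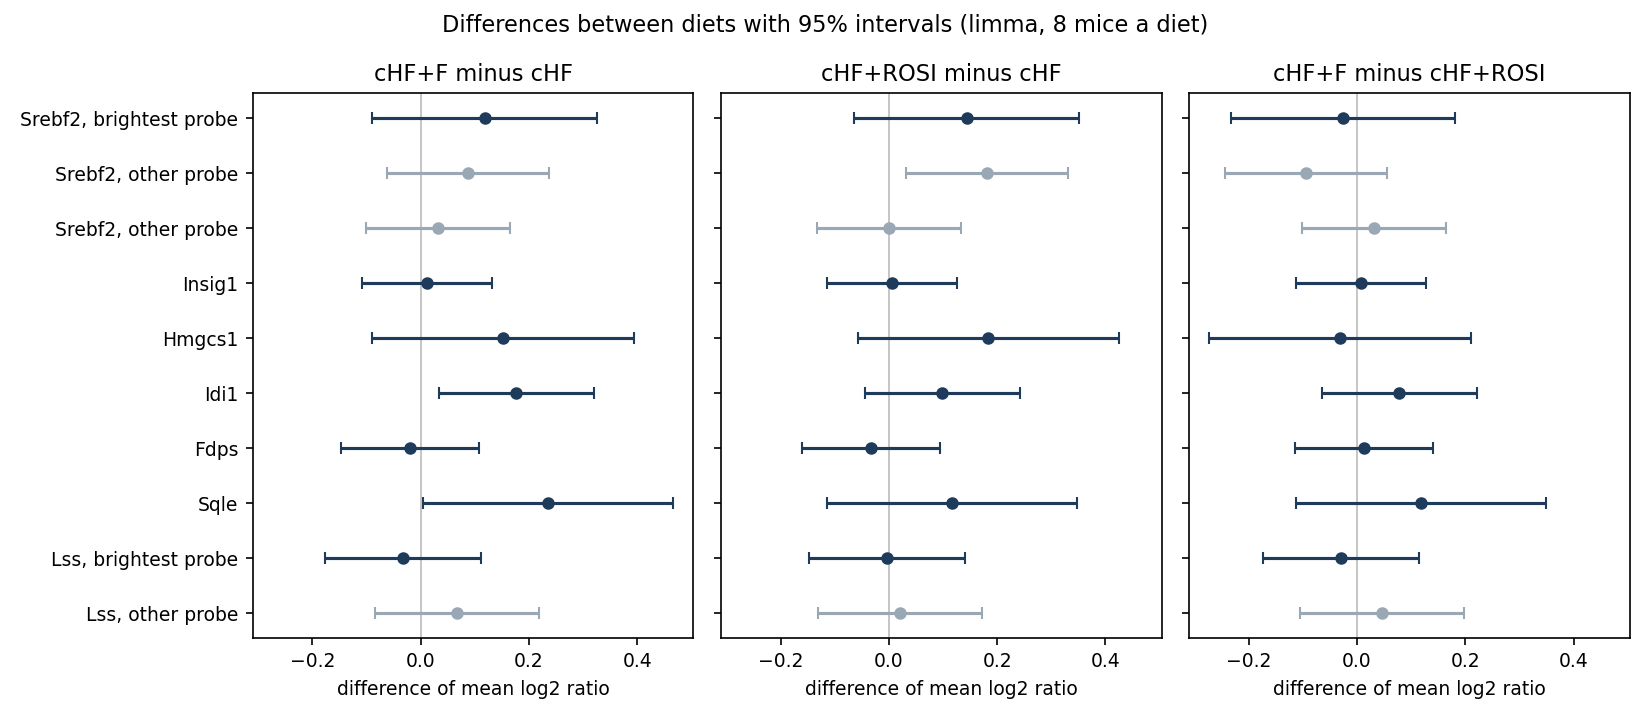
Difference of the mean log2 ratio between diets, with its 95% interval from limma, for the 10 probes of the 7 measured genes (8 mice a diet; dark points are the brightest probe of a gene, grey points its other probes). Among the brightest probes the interval excludes 0 only for Idi1 (0.03 to 0.32) and Sqle (0.004 to 0.47) in cHF+F versus cHF.

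Between cHF+F and cHF+ROSI the 7 genes differed by -0.03 (Hmgcs1) to 0.12 (Sqle), with a median of 0.007. The median of the 7 differences from cHF was 0.12 for cHF+F and 0.10 for cHF+ROSI, beside medians over all probes of 0.0005 and -0.008. The 2 supplemented diets were compared with the same 8 cHF mice, so that an unusual cHF group would shift both in the same direction. The common pool gave the background of the measurement. In Cy3 alone the 7 genes differed between the arrays of the diets by -0.06 to 0.50, and every 95% interval included 0. The value of 0.50 was that of Hmgcs1 in cHF+F versus cHF, and it went with 1 array: on the cHF array with replicate number 3, Hmgcs1 had a normalized log2 signal of 6.98 in Cy5 and 6.25 in Cy3, against 10.46 to 12.13 and 9.52 to 10.26 on the others. Sqle was also low there, at 6.48 and 6.4 against 7.1 to 8.39 and 6.65 to 7.41. In both channels Idi1 and Fdps were below the range of the other arrays too, and Srebf2 was above it. Insig1 and Lss were within it.

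The other genes of the pathway were counted from 4 lists. Of 15 further synthesis genes 14 were measured, and none was called in any comparison. In cHF+F versus cHF 7 were higher and 7 lower, with a median difference of 0.001. They ran from -0.14 ± 0.07 for Lbr, a sterol reductase of the nuclear envelope, to 0.24 ± 0.13 for Hsd17b7, a sterol ketoreductase. Hsd17b7 was higher in the cHF+F mouse of all 8 slides (by 0.01 to 0.59), and with slide as a block its 95% interval was 0.08 to 0.39 (limma adjusted p = 0.201). The share of all probes that were higher on all 8 slides is not given here. The dimmer probe of Hsd17b7 gave 0.16 ± 0.09, with a higher value in 6 of 8 slides. Msmo1 and Sc5d, a sterol methyl oxidase and a sterol desaturase of the late steps, differed in cHF+F by 0.14 ± 0.09 and 0.14 ± 0.06, and the second probe of Sc5d gave 0.05 ± 0.06. In cHF+ROSI versus cHF the list had a median difference of 0.005 and ran from -0.08 ± 0.11 for Fdft1, the squalene synthase, to 0.16 ± 0.13 for Hsd17b7.

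The lists of SREBP processing, of uptake and transport, and of efflux held no called gene either. Srebf1, which encodes SREBP1, the regulator of fatty acid synthesis, had the largest difference between the supplemented diets among the listed genes. Its lowest, median and highest values were -0.71, -0.24 and -0.12 in cHF, -0.87, -0.58 and -0.12 in cHF+F, and -0.39, 0.04 and 0.21 in cHF+ROSI. All 8 cHF+F mice lay below the mean of cHF+ROSI, and the difference was -0.55 ± 0.11 (limma adjusted p = 0.326; 0.069 with slide as a block). On 1 of the 8 slides the cHF+F mouse was the higher, by 0.26. In 16 runs 1 array was left out at a time. Without cHF+F replicate 7 or cHF+ROSI replicate 7 the limma adjusted p was 0.038 and 0.044, with differences of -0.61 and -0.60. In the other runs Srebf1 was not called. Against cHF the differences were -0.25 ± 0.11 for cHF+F and 0.30 ± 0.11 for cHF+ROSI.

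Of 11 genes of uptake and intracellular transport 10 were measured, with a median difference from cHF of -0.03 in cHF+F and -0.09 in cHF+ROSI. Vldlr, a lipoprotein receptor of muscle, differed by -0.09 ± 0.11 and -0.15 ± 0.11, and its other probe lay on the other side of 0, at 0.02 ± 0.10 in both comparisons. Npc1, which exports cholesterol from lysosomes, differed by 0.18 ± 0.08 in cHF+F and by -0.08 ± 0.08 in cHF+ROSI. All 8 genes of esterification, efflux and the sterol receptor LXR were measured. In cHF+F all 8 had a difference below 0, while 50.32% of all probes lay above 0. The 8 genes ran from -0.02 to -0.27, with a median of -0.08. The lowest was Abca1, the cholesterol efflux pump, whose values were -0.03 to 0.25 in cHF and -0.32 to -0.02 in cHF+F. These ranges hardly overlapped, and every cHF+F mouse was below the cHF mouse of its slide. How often this held among all probes is not given here. The difference was -0.27 ± 0.08 (95% interval -0.43 to -0.11), and it did not pass the correction (limma adjusted p = 0.385; 0.179 with slide as a block). In cHF+ROSI Abca1 differed by -0.06 ± 0.08.

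Hmgcs1, Sqle and Idi1 varied together across the 24 mice, and Srebf2 varied with Hmgcs1 and Sqle under some settings only. The identity of the Idi1 probe is less certain than that of the others, as stated above. Among the 21 pairs of the 7 genes, 5 pairs had an adjusted p under 0.05 in a two-sided permutation test of Pearson's r (Benjamini-Hochberg over 21 pairs), and all of them were among Srebf2, Hmgcs1, Sqle and Idi1. Sqle and Idi1 had the closest relation, with r = 0.80 and Spearman's rho = 0.83 (permutation p = 1e-05 for each, the smallest that 100000 permutations can give; adjusted p = 0.00021). Hmgcs1 had r = 0.69 with Idi1 (rho = 0.73; adjusted permutation p = 0.0019) and r = 0.68 with Sqle (rho = 0.78; adjusted permutation p = 0.0021). Srebf2 had r = 0.59 with Sqle (rho = 0.51; adjusted permutation p = 0.014), 0.55 with Hmgcs1 (rho = 0.53; adjusted permutation p = 0.021) and 0.44 with Idi1 (rho = 0.33; adjusted permutation p = 0.115). No pair with Srebf2 passed with the diet means removed. Against all 15958 probes the median r of these genes was between -0.02 and -0.005. The 99th percentile was 0.713 for Hmgcs1, 0.605 for Srebf2, 0.605 for Idi1 and 0.525 for Sqle. Only Sqle with Idi1 exceeded the 99th percentile of both genes. Hmgcs1 with Idi1 and with Sqle lay below that of Hmgcs1 (percentiles 98.5 and 98.3) and above that of the other gene. Srebf2 with Sqle lay below that of Srebf2 (percentile 98.8) and above that of Sqle. Srebf2 with Hmgcs1 lay below both (percentile 98.2 for Srebf2).

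**Figure D3:**
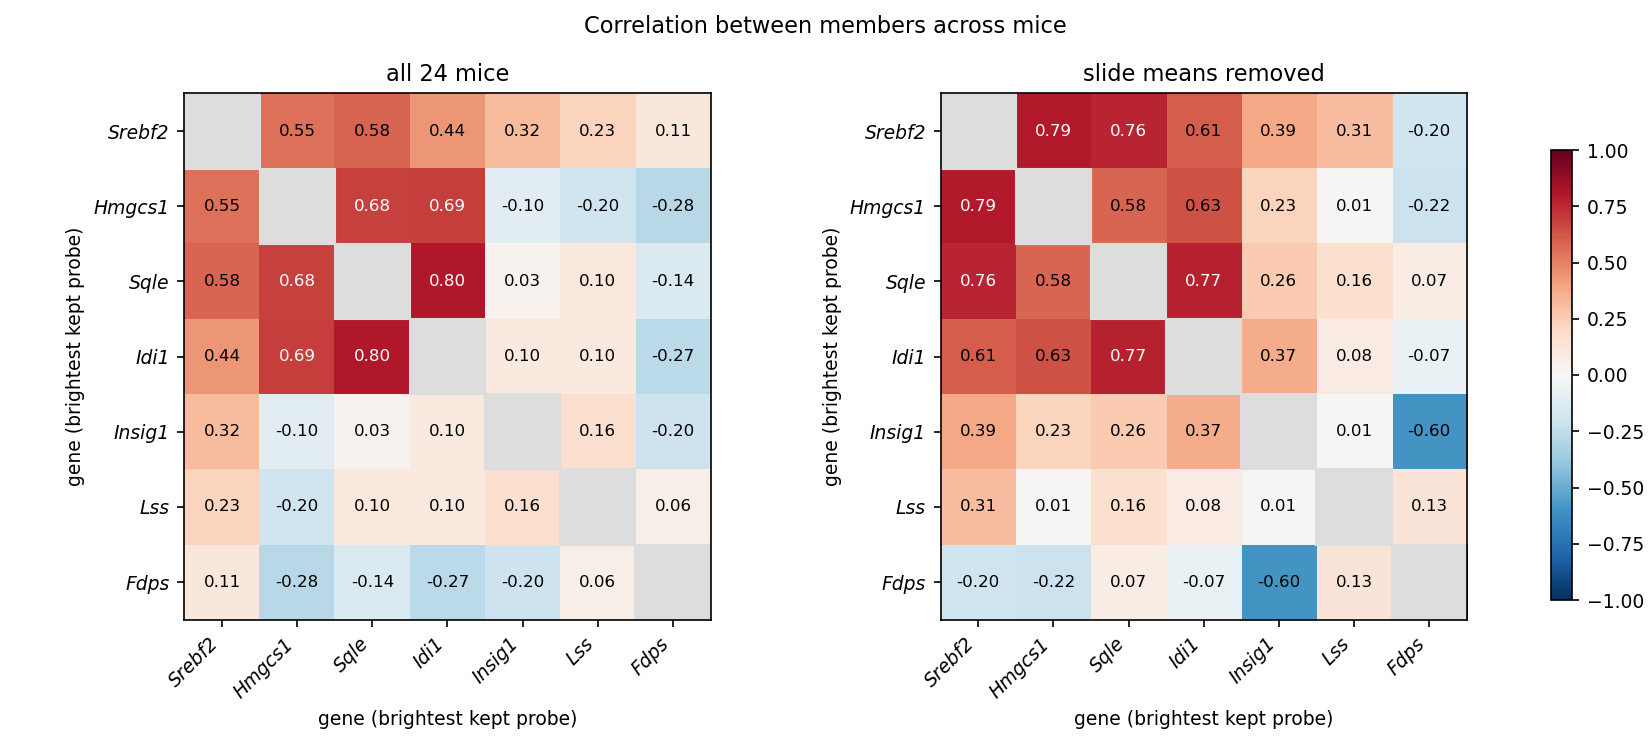
Pearson's r between the 7 measured genes across the 24 mice (left) and after the mean of each slide was removed (right), on a colour scale from -1 to 1. Srebf2, Hmgcs1, Sqle and Idi1 have r of 0.44 to 0.80 with each other on the left and 0.58 to 0.79 on the right.

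For Insig1, Lss and Fdps no such relation was found in the loess ratios. The 15 pairs that include at least 1 of these genes had r between -0.28 and 0.32 with a median of 0.06, and none passed the test. With median centring in place of loess this split did not hold: 9 of these 15 pairs then passed, with r = 0.76 for Srebf2 and Fdps, 0.73 for Idi1 and Lss and 0.60 for Insig1 and Lss, beside 4 of the other 6 pairs, while Srebf2 and Sqle had r = 0.30.

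The mice at the ends could be named. Replicate 2 of cHF was the lowest of its group for Srebf2 (-0.42), Hmgcs1 (-0.34) and Sqle (-0.41). Replicate 7 of cHF+ROSI was the lowest of its group for all 4 genes: -0.54 for Srebf2, -0.27 for Hmgcs1, -0.48 for Sqle and -0.02 for Idi1. Replicate 5 of cHF+F was the highest of its group for Srebf2 (0.20), Sqle (0.59) and Idi1 (0.41). Low and high mice were thus found under different diets. For Srebf2 these places hold for the brightest probe, the one used for every r. The brighter and dimmer of its other probes gave 0.33, the highest of its group, and -0.38 in replicate 7 of cHF+ROSI. They gave -0.45 and -0.003 in replicate 2 of cHF, and 0.07 and -0.07 in replicate 5 of cHF+F. The place of a mouse for Srebf2 thus depended on the probe.

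The relation among Hmgcs1, Sqle and Idi1 was present within each diet, with r between 0.64 and 0.88 in the 9 combinations of pair and diet (8 mice each). It was also present within slides: after the slide means were removed, r was 0.58 for Hmgcs1 and Sqle, 0.63 for Hmgcs1 and Idi1 and 0.77 for Sqle and Idi1, and the r of Srebf2 was 0.79 with Hmgcs1, 0.76 with Sqle and 0.61 with Idi1. Each slide held only 3 mice, so no r was computed for a single slide. Without the 2 arrays that stood apart in brightness, r was 0.69 for Hmgcs1 and Sqle, 0.72 for Hmgcs1 and Idi1 and 0.81 for Sqle and Idi1. The r of Srebf2 without these arrays was 0.59 with Hmgcs1, 0.645 with Sqle and 0.575 with Idi1. Without the 2 mice farthest from the median of the first gene, r remained 0.71 for Hmgcs1 and Sqle, 0.67 for Hmgcs1 and Idi1 and 0.76 for Sqle and Idi1. For Srebf2 it was then 0.40 with Hmgcs1, 0.34 with Sqle and 0.25 with Idi1, none of which passed the test, so these relations rested in part on the mice at the ends.

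**Figure D4:**
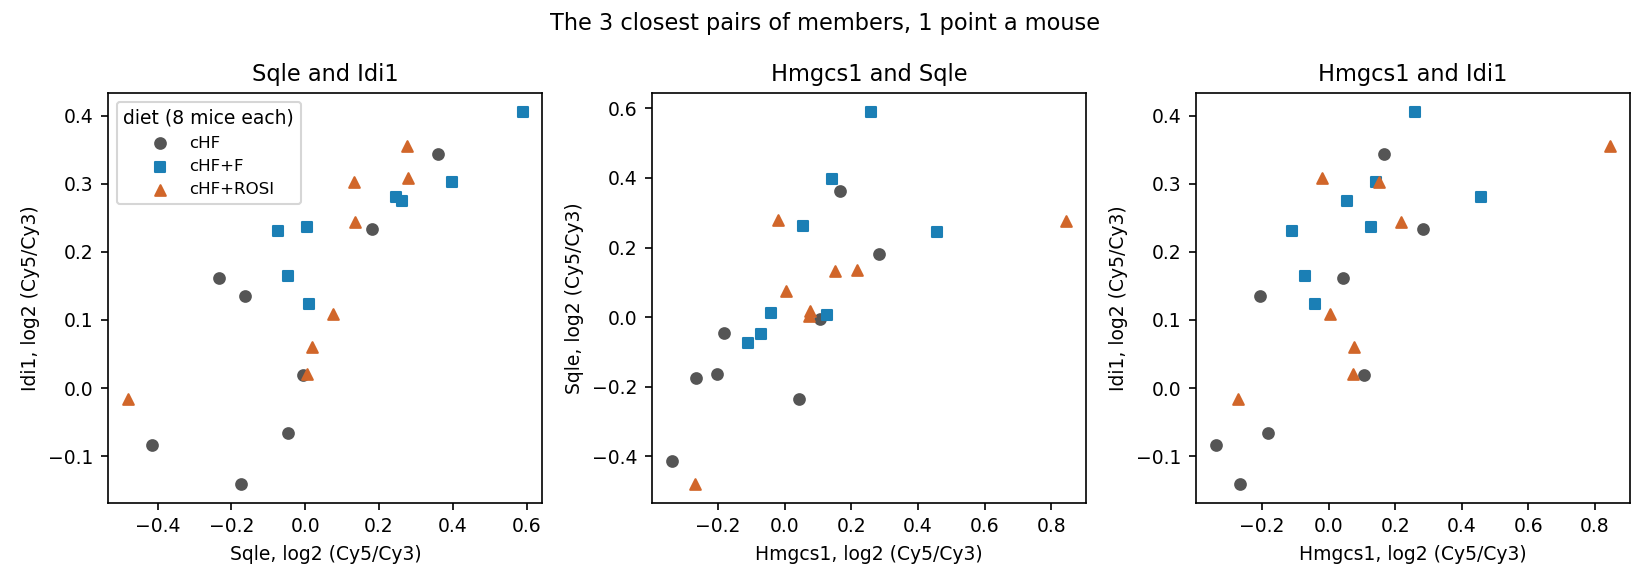
Log2 ratio (Cy5 over Cy3) of 1 gene against another in the 24 mice, for the pairs of Sqle, Idi1 and Hmgcs1; each point is a mouse, and shape and colour give its diet. In all 3 panels mice of the 3 diets are mixed along a rising band, with r of 0.80 (Sqle and Idi1), 0.68 (Hmgcs1 and Sqle) and 0.69 (Hmgcs1 and Idi1).

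The ratios of 1 array share its hybridization and its normalization, so both channels were also examined alone. In Cy5 alone, r was 0.768 for Hmgcs1 with Sqle, 0.775 for Hmgcs1 with Idi1 and 0.768 for Sqle with Idi1. Srebf2 then had negative r with the other 3 genes, -0.45 with Hmgcs1, -0.09 with Sqle and -0.31 with Idi1. Without the 2 arrays that stood apart in brightness, Cy5 alone gave 0.62, 0.73 and 0.51 for the 3 pairs and 0.40, 0.79 and 0.18 for Srebf2 with Hmgcs1, Sqle and Idi1. Of these, Sqle with Idi1 did not pass the test (adjusted permutation p = 0.072), nor did Srebf2 with Hmgcs1 or Idi1. The same pool was hybridized in Cy3 on every array, and there r was 0.65, 0.82 and 0.64 for the 3 pairs over all 24 arrays, and -0.60, 0.07 and -0.42 without those 2 arrays. The SD of Cy5 over these 22 arrays was 0.35 for Hmgcs1, 0.29 for Sqle and 0.23 for Idi1, and that of Cy3 was 0.16, 0.11 and 0.13.

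The adipocyte markers varied with the same genes. Their mean log2 ratio had r = 0.57 with Hmgcs1, 0.55 with Srebf2, 0.40 with Sqle and 0.33 with Idi1 over the 24 mice, as a description. With this score as a covariate, the partial r was 0.77 for Sqle and Idi1, 0.65 for Hmgcs1 and Idi1 and 0.61 for Hmgcs1 and Sqle. It was 0.48, 0.35 and 0.33 for Srebf2 with Sqle, Hmgcs1 and Idi1, and none of these 3 passed the test. The mean of Srebf2, Hmgcs1, Sqle and Idi1 had r = 0.54 with the adipocyte score, -0.29 with that of endothelium, -0.17 with blood, -0.09 with liver, -0.07 with muscle and 0.08 with macrophage markers. With the share of bright spots of an array it had r = 0.08 in Cy5 and 0.05 in Cy3.

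Other genes were then ranked by their r with the mean of the 7 standardized genes across the 24 mice, among 15943 probes of other genes. The 10 highest with a symbol were Herc3 (0.74), Scd2 (0.72), Msmo1 (0.72), Fpgs (0.69), Fam168b (0.69), Runx1t1 (0.67), 4933413A10Rik (0.66), Zzz3 (0.65), Mtss1 (0.65) and Ggcx (0.645). Msmo1 belongs to the lists of the pathway, and Scd2 is a fatty acid desaturase. Of the 36 listed genes that were measured, 2 were among the first 100 ranks (5.56%, beside 0.627% of all probes), Msmo1 at rank 3 and Sc5d at rank 50. After removal of the slide means Msmo1 was again at rank 3, and Sc5d was at 273. Most of the lists did not follow: Fdft1, which acts directly before Sqle, had r = -0.30, Srebf1 had 0.12, and 4 genes of efflux and LXR were at -0.21 or below, with Abca1 at -0.21 and Nr1h2 at -0.42. The other 4 genes of that list were above 0, Abcg1 at 0.27, Apoe at 0.16, Soat1 at 0.11 and Nceh1 at 0.08. These values are descriptions across mice, and the ranked probes come from the same 24 arrays as the genes they were compared with.

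**Figure D5:**
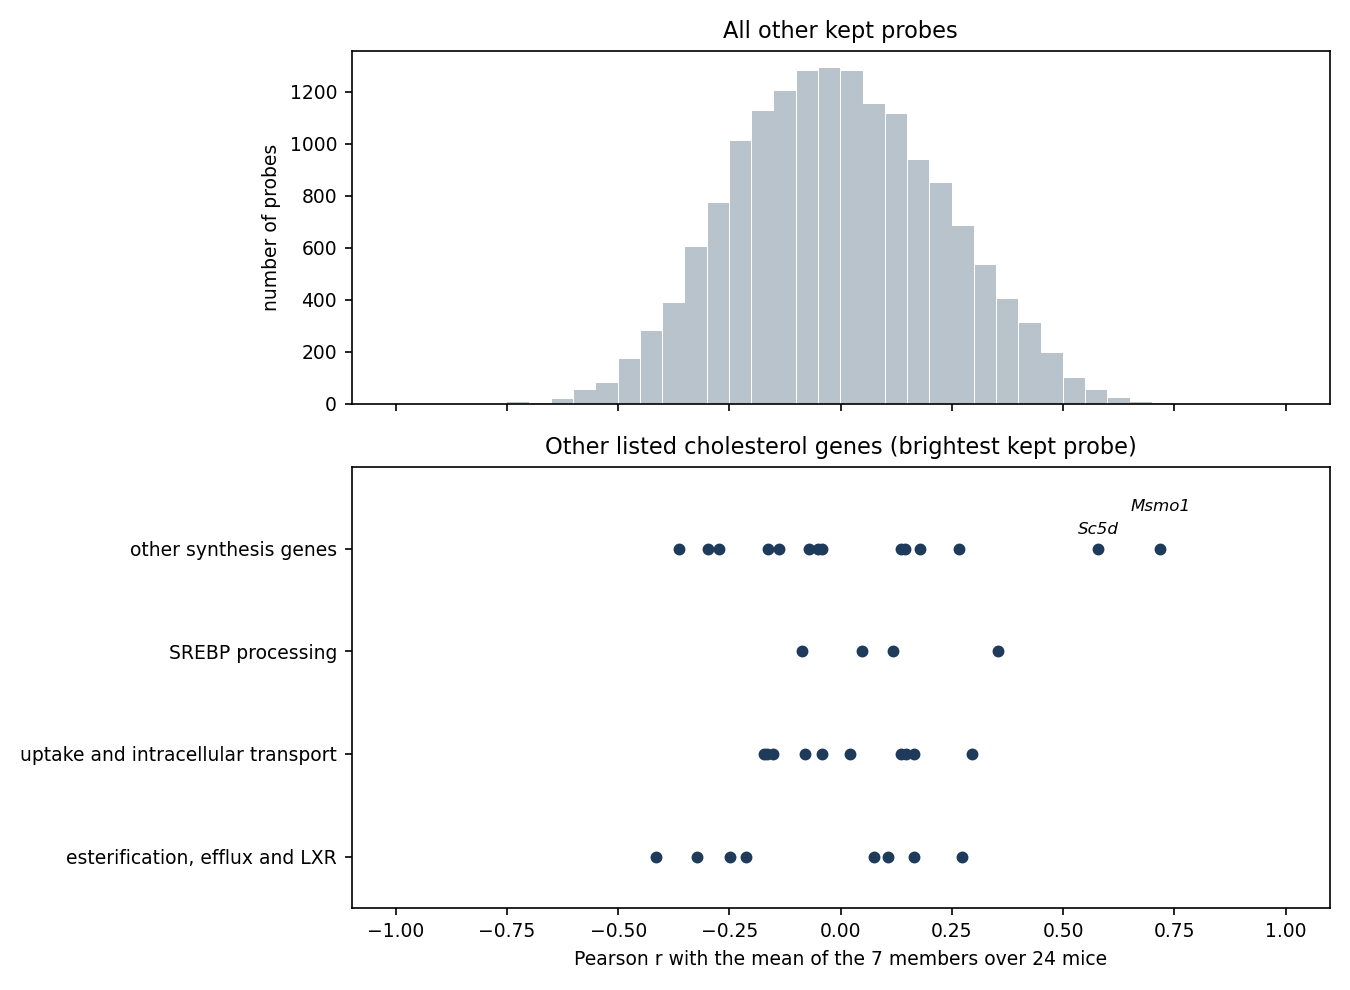
Pearson's r with the mean of the 7 measured genes across the 24 mice, for the 15943 probes of other genes (upper panel, number of probes in each interval of r) and for the listed genes of the cholesterol pathway (lower panel, 1 point a gene, by list). Msmo1 and Sc5d lie at 0.72 and 0.58, to the right of nearly all probes, and the other listed genes spread from -0.42 to 0.35.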

How the data were processed

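Gastrocnemius RNA of 24 mice was measured on 24 two-colour 44K oligonucleotide arrays, with 1 mouse in Cy5, a common pool in Cy3 (which also held RNA of a high-dose rosiglitazone group not analysed here) and no dye swap. Per the file headers, the deposited scanner files hold spot and background intensity on a linear scale from Feature Extraction (10.5.1.1 in the headers, 10.5.5.1 in the submitters' processing notes). The authors also deposited a table of log2 values, the Cy5 signal normalized against Cy3 after removal of dim spots. It served as an alternative for cHF+F versus cHF, and 8 columns that name a combined diet were not used.

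Median spot signals were corrected by normexp (offset 50), log2 ratios were normalized by loess (span 0.3), spots of a probe were averaged, and flagged spots were missing. Probes needed 4 unflagged arrays a group and a mean signal over background of at least 2 in both channels. Symbols came from RefSeq accessions for 12577 of 15958 probes and from the scanner files for 2512. Groups were compared in limma 3.58.1 (R 4.3.3, data.table version 1.17.8) without a block, which the study's methods do not name. The code was tested on simulated data. Alternatives were a slide block, other background corrections, normalizations, filters and spot signals, array weights, the methods' t-test and each array left out. A gene is stated by its brightest probe. The number of arrays limits the precision.

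The 8 genes and the lists were chosen with earlier results of these data known. The members were all named, listed genes could be named, and the 10 most similar probes were taken by r. Some listed genes are not reported here and were left out of the lists and of this ranking. Same-numbered arrays shared a slide, per the file headers, and a slide held its groups at fixed places, so that place and diet cannot be told apart. The slide pairs the samples: deviations from the group means correlated at a median of 0.25 on the same slide and at -0.05 otherwise.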

Additional observations from a re-analysis of the deposited data

Results flagged for a closer look

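In the 21 combinations of gene and diet, 2 mice lay far from the other 7 of their group by Dixon's criterion for the gap to the nearest mouse over the range of the group, where chance gives about 1 in 20. Replicate 1 of cHF+ROSI had an Hmgcs1 log2 ratio of 0.845, while the next mouse was at 0.217. Replicate 7 of cHF+ROSI had a Sqle log2 ratio of -0.48, while the next was at 0.0043. The part of the array, the slide or the animal in these values was not tested.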

How the results depend on the processing

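None of the 7 genes was called in any comparison under any alternative run. With slide as a replicate block, 6 probes were called in cHF+F versus cHF in place of 0, none of them a probe of these genes, and the block changed no other call. The methods' t-test passed 1265 probes before adjustment (p under 0.05) when cHF+F was set against cHF, 754 for cHF+ROSI against cHF and 937 between the supplemented diets, and 0 in each after Benjamini-Hochberg adjustment. In cHF+F versus cHF 2 probes were called with mean spot signals, 3 without the filter on dim probes and 13 with array weights. Leaving out 1 array at a time gave 0 to 2 called probes in cHF+F versus cHF (1 without replicate 8 of cHF, 2 without replicate 8 of cHF+F) and 0 to 2 in cHF+F versus cHF+ROSI (1 without replicate 7 of cHF+F, 2 without replicate 7 of cHF+ROSI).

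Signs turned mostly for differences near 0. With Cy5 alone, cHF+F versus cHF+ROSI was -0.072 for Fdps, 0.082 for Hmgcs1, -0.015 for Idi1 and -0.030 for Insig1 and cHF+ROSI versus cHF was 0.17 for Abca1, 0.05 for Fdps and -0.019 for Msmo1. With the processed signals of the scanner software, cHF+F versus cHF+ROSI was -0.019 for Fdps, 0.017 for Hmgcs1 and -0.047 for Insig1, Idi1 was -0.016 in cHF+F and -0.083 in cHF+ROSI, and Lss was 0.023 in cHF+ROSI. Array weights gave -0.011 for Fdps between the supplemented diets and -0.000254 for Insig1 in cHF+ROSI. Loess with a span of 0.1 gave 0.00031 for Lss in cHF+ROSI, and mean spot signals gave 0.011 for Lss there. Median centring gave -0.00564 for Fdps and 0.023 for Lss between the supplemented diets. Without background correction, Hmgcs1 was 0.00467 between the supplemented diets, Insig1 was -0.015 in cHF+F and -0.017 in cHF+ROSI, and Lss was 0.044 in cHF+ROSI. In the authors' table cHF+F versus cHF was 0.016 for Fdps and -0.10 for Insig1.

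Without slides 1 to 3, cHF+F versus cHF+ROSI was 0.087 for Hmgcs1, -0.012 for Insig1 and 0.048 for Srebf2, cHF+F versus cHF was 0.063 for Fdps and -0.036 for Insig1, and cHF+ROSI versus cHF was 0.019 for Fdps and -0.024 for Insig1. Leaving out the arrays with the lowest and highest share of bright spots was chosen after seeing the data. Insig1 was then -0.0050 in cHF+ROSI, and with Cy5 alone cHF+F versus cHF+ROSI was 0.0030 for Srebf2, 0.077 for Hmgcs1, -0.075 for Idi1 and -0.063 for Fdps, and cHF+ROSI versus cHF was 0.0060 for Fdps and 0.070 for Abca1.

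With 1 array left out at a time, the differences that turned their sign ran as follows. In cHF+F versus cHF they were -0.015 to 0.042 for Insig1 and -0.049 to 0.017 for Fdps. In cHF+ROSI versus cHF they were -0.015 to 0.035 for Insig1, -0.061 to 0.0045 for Fdps, -0.053 to 0.022 for Lss and -0.096 to 0.0068 for Abca1. In cHF+F versus cHF+ROSI they were -0.10 to 0.0038 for Srebf2, -0.090 to 0.070 for Hmgcs1, -0.020 to 0.034 for Insig1, -0.011 to 0.033 for Fdps, -0.054 to 0.021 for Lss and -0.0041 to 0.096 for Msmo1.

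Of the 21 pairs of genes 5 passed the test, and as many did with slide means removed. It was 3 with diet means removed, 3 with Cy5 alone, 3 without the 2 farthest mice, 3 with Cy5 alone and without the dimmest and brightest arrays, 3 with the adipocyte score as covariate and 13 with median centring. In Cy5 alone, r of Srebf2 was -0.45 with Hmgcs1, -0.31 with Idi1 and -0.086 with Sqle. For the pairs, leaving out these arrays or slides 1 to 3 and the adipocyte covariate were chosen after seeing the data. The cause of these changes was not tested. No dyes were swapped, so the part of the dyes in these ratios was not tested.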
